A study of Danio rerio with 18 samples.

Results

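Accessible chromatin of endothelial cells (ECs) was compared with that of hepatocytes (HEPs) in the untreated zebrafish liver, using the ATAC-seq peak list of each. The EC control list held 51257 peaks and the HEP control list 41563, together 92820 of the 308216 peaks in the 6 lists of the series. A peak was called specific if no peak of the other list shared at least 1 bp with it, and shared otherwise. By this rule 25147 EC peaks were EC-specific and 26110 were shared, and 15336 HEP peaks were HEP-specific and 26227 were shared.

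ECs were sorted from adult females of the line Tg(kdrl:ras-mCherry), in which the kdrl promoter marks vascular endothelium, and HEPs from Tg(fabp10a:dsRed), in which the fabp10a promoter marks hepatocytes. Both lines were on the AB background. Both control groups were injected 6 times within 2 weeks, as controls for thioacetamide (TAA), a compound that injures the liver. The study names the control injection as sterile water in one place and as saline in others. Each group had 3 libraries of 60000 sorted cells. Cell type and transgenic line cannot be told apart, because every cell type came from its own line. Fewer control fish are given in the study than control libraries were made, so the libraries are not known to come from separate fish. The 4 further lists served for comparison were those of hepatic stellate cells (HSCs, marked by EGFP under hand2) of control fish, and of ECs, HEPs and HSCs of fish given 500 mg/kg TAA on the same schedule.

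In ATAC-seq a transposase cuts DNA that nucleosomes leave free, so peaks mark promoters, enhancers and other regulatory DNA that proteins can reach. Promoters of genes that every cell uses are open in most cell types, whereas distal elements are more often open in one lineage. Hepatocytes make the plasma proteins and the enzymes of detoxification, and the endothelial cells of the liver line its vessels and sinusoids.

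The authors merged the 3 libraries of a group into 1 peak list, so neither list has a replicate error. No test between ECs and HEPs was possible and no p-value is given. Intervals in brackets are Wilson 95% intervals. They take in the counting error of peaks and leave out any difference between libraries or fish. The score of a peak, a capped value that grows with the significance of the peak, was used to rank peaks within a list (rank 1 is the highest score) and is given as a description. The lists held no read counts. The study's sequencing metrics list more read pairs for each EC control library than for any HEP control library, and the part of depth in the longer EC list was not tested. Shares are therefore also given for lists of equal length, the best 41563 peaks of each.

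Taken at full length, the EC list held the larger share of specific peaks. EC-specific peaks made up 49.1% of the EC list (48.6% to 49.5%) and covered 4.59 Mb, which was 44.9% of the base pairs in that list. HEP-specific peaks made up 36.9% of the HEP list (36.4% to 37.4%) and covered 2.73 Mb, or 34.7% of its base pairs. At equal length the shares were 41.8% and 41.5%. Almost every overlapping peak had a single partner (26268 pairs of 26110 EC and 26227 HEP peaks). Lists of equal length therefore give nearly equal shares by construction, so this setting cannot compare the cell types. The difference between whole lists follows their lengths. Few peaks lay at the limit of the rule: 12 of 26268 overlapping pairs shared 10 bp or less, and 8 EC-specific peaks lay within 10 bp of a HEP peak.

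Specific peaks were found mainly among the weak peaks of both lists. In the 10% of EC peaks with the highest scores, 453 of 5126 were EC-specific (8.84%), and the share rose with every further 10% of the list to 83.3% in the last. In the best 10% of HEP peaks 336 of 4157 were HEP-specific (8.08%), the second 10% reached 25.6%, and the last 10% reached 54.0%. The share thus climbed farther in ECs. With lists of equal length the best 10% was 6.98% specific in ECs and 13.6% in HEPs, so the HEP share was the higher at the top of the lists, while the last 10% remained higher in ECs at 72.0% against 60.1%.

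**Figure D1:**
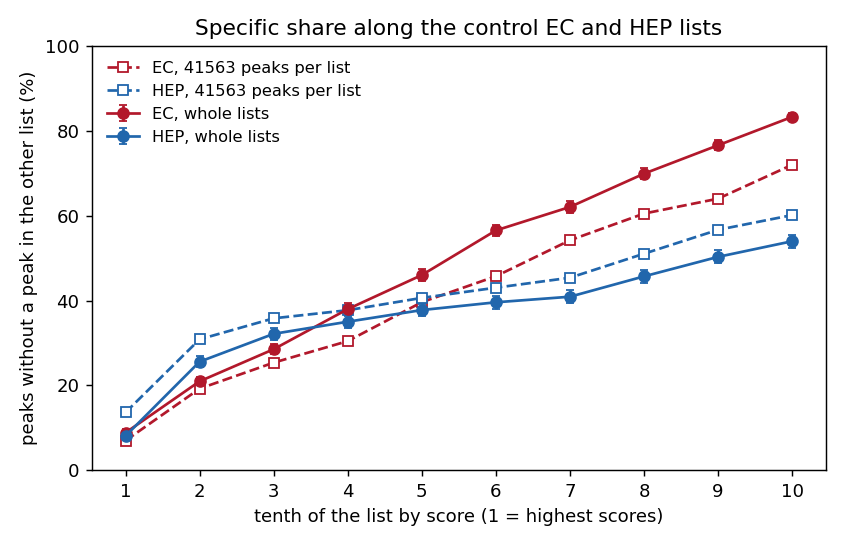
Share of peaks without a peak in the other control list (y axis, percent) in each successive 10% of the EC and HEP control lists by score (x axis, step 1 has the highest scores). Filled points are whole lists with Wilson 95% intervals and open squares are lists of 41563 peaks; EC-specific peaks rise from 8.84% to 83.3% and HEP-specific peaks from 8.08% to 54.0%.

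The median score was 193 for EC-specific peaks and 505 for shared EC peaks, with the middle 80% of scores between 95 and 596 and between 159 and 1625. In HEPs the medians were 237 and 386. At the highest possible score of 3240 stood 1 EC-specific peak and 113 shared EC peaks, and 0 HEP-specific peaks and 70 shared HEP peaks. The classes overlapped widely in score, and strong specific peaks existed in both lists.

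The strongest specific sites of ECs and HEPs differed in which other lists held them. The EC-specific peak with the highest score lay on chromosome 25 at 1343699 to 1343976 (GRCz11, as all positions here), with score 3240 and rank 78. It was a peak in every list except HEP control, with score 3240 in HSC control, 3240 in HSC TAA, 2432 in EC TAA and 606 in HEP TAA. It was the exception among the 10 strongest EC-specific peaks, of which 6 were peaks in EC control alone. One of these lay on chromosome 21 at 35435824 to 35436123 with score 2315 and rank 927. Another lay on chromosome 18 at 24391445 to 24391879 with score 2305, and the others on chromosomes 20, 3, 23 and 12 had scores from 2126 to 2225. The remaining 3 were also in HSC control, at scores of 119 or less, for example the peak on chromosome 19 at 15556425 to 15556875 with 2227 in EC control and 119 in HSC control. Of these 3, the peak on chromosome 1 at 20813722 to 20814114 was in EC TAA too, with score 56.

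The 10 strongest HEP-specific peaks had scores from 2028 to 2648, and each was a peak in all lists except EC control. The first lay on chromosome 5 at 28896706 to 28896993 with rank 306 and score 2648, and had score 2867 in EC TAA. The second, on chromosome 14 at 41230614 to 41230868, had 2484 in HEP control and 2879 in EC TAA. The strongest HEP-specific sites were thus also peaks in the HSC lists and in the EC TAA list. So were nearly all shared HEP peaks of the best 10% (99.97% in HSC control, 100% in HSC TAA and 100% in EC TAA).

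This asymmetry held for the classes as a whole. Of the EC-specific peaks 26.8% (26.3% to 27.4%) were also in HSC control, 16% in EC TAA, 15% in HEP TAA and 21.0% in HSC TAA. Of the HEP-specific peaks 84.5% (84.0% to 85.1%) were in HSC control, 89.1% (88.6% to 89.6%) in EC TAA, 76.1% (75.4% to 76.7%) in HEP TAA and 90.8% in HSC TAA. Shared peaks of both lists were found again in 85.9% to 96.8% of cases. HEP-specific peaks were therefore nearer than EC-specific peaks to shared peaks in how often other lists held them. They stayed below shared HEP peaks in HSC control (96.7%) and HEP TAA (91.6%). In EC TAA they stood above shared HEP peaks (85.9%), and in HSC TAA they were nearly level with them (91.0%).

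Counted over the 4 other lists together, 15874 EC-specific peaks (63.1%) were in none and 1694 (6.74%) were in all. For HEP-specific peaks the order was the opposite, with 655 (4.27%) in none and 10552 (68.8%) in all. The 655 HEP-specific peaks found nowhere else were weak and narrow, with a median score of 105 and a median width of 108 bp, and 0 of them stood in the best 10% of the HEP list. The EC-specific peaks found nowhere else had a median score of 177, and 306 of them stood in the best 10%. Most peaks called HEP-specific were thus absent from the EC control list and present in all 4 other lists. Whether the sites are private to hepatocytes cannot be told, because the part of hepatocyte DNA in the other lists was not tested.

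**Figure D2:**
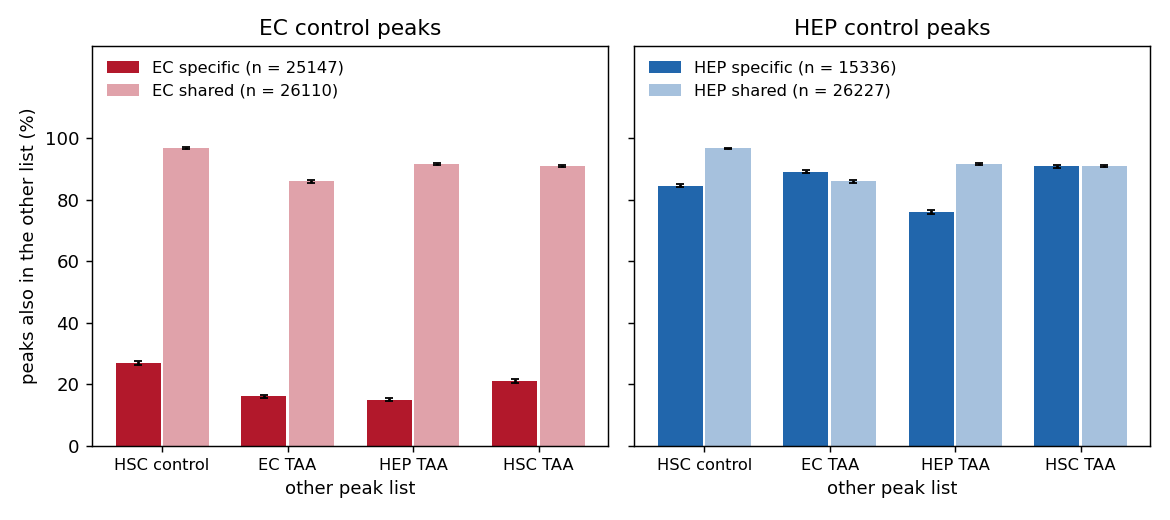
Percent of specific and shared peaks (y axis) that were also peaks in the HSC control, EC TAA, HEP TAA and HSC TAA lists (x axis), for EC control peaks on the left and HEP control peaks on the right. Bars are shares with Wilson 95% intervals; EC-specific peaks reach 15% to 26.8%, HEP-specific peaks 76.1% to 90.8%, and shared peaks 85.9% to 96.8%.

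Presence in other lists changed with strength. Of the EC-specific peaks in the best 10%, 26% were in HSC control, 17% in HSC TAA and 9.71% in HEP TAA, against 11.2%, 14.4% and 6.21% in the last 10%. In EC TAA, the list of the same cell type after injury, the share was 6.18% in the best and 10.3% in the last 10%. Over the whole class the shares were 26.8% in HSC control, 16% in EC TAA, 15% in HEP TAA and 21.0% in HSC TAA. Both ends lay below these values in every list, so presence of EC-specific peaks did not move in a single direction with strength. All 336 HEP-specific peaks of the best 10% were in EC TAA, in HEP TAA and in HSC TAA, and 99.7% were in HSC control. In the last 10% these shares lay between 41.3% and 68.7%. Shared HEP peaks changed in a like way, from 99.97% to 100% in the best 10% to between 40.7% and 80.8% in the last. Presence of the strongest HEP peaks in other lists was thus not particular to the HEP-specific class. With every list reduced to 41563 peaks, an alternative chosen after the values were seen, EC-specific peaks were found in 10.5% to 14.9% of cases and HEP-specific peaks in 72.6% to 78.8%. Shared peaks of both lists were then found in 81.3% to 91.7%.

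EC-specific peaks that HSCs also had stood apart from the rest in median score but not in their share of the strongest peaks. The 6745 EC-specific peaks in HSC control had a median score of 238, and 41.7% of them were in EC TAA and 44.6% in HEP TAA. The 18402 not in HSC control had a median score of 178, with 6.56% in EC TAA and 4.12% in HEP TAA. In the best 10% of the EC list stood 118 (1.75%) of the former and 335 (1.82%) of the latter. Peaks present in ECs with and without TAA and in neither HEP list numbered 1974, or 7.85% of the EC-specific class. The reverse class, HEP peaks with and without TAA and in neither EC list, numbered 442, or 2.88% of the HEP-specific class.

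Other pairs of lists place these values. EC control against HSC control gave 37.5% specific peaks in ECs and 42.0% in HSCs. In the best 10% the shares were 6.83% in ECs and 11.2% (617 of 5530) in HSCs. HEP control against HSC control gave 7.76% in HEPs and 30.9% in HSCs, with 2 of 4157 and 7 of 5530 peaks in the best 10%. At equal length this pair gave 16.3% and 16.6%, and ECs against HSCs gave 40.4% in both directions. After TAA, 29.8% of EC peaks lacked a HEP peak and 14.4% of HEP peaks lacked an EC peak, with 3 of 5421 and 3 of 4465 in the best 10% of each list. At equal length the TAA pair gave 19.4% and 19.0%, against 41.8% and 41.5% in control fish. Whether the EC control list differs from the others through the cells or through its libraries cannot be told apart with 1 list per group.

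Gene names were available for sites on chromosomes 1, 10 and 11 only, from the gene starts in the study's own annotation of promoter peaks. That annotation lists starts near peaks of HSCs or HEPs, so promoters open in ECs alone are under-represented, and no share of genes is drawn from it. A start not listed may lie nearer to a peak than the one named. None of the 40 endothelial marker genes had a listed start, so the EC label could not be checked against its markers here. Of the 44 hepatocyte markers 6 had one. A marker could be listed only if an HSC or HEP peak lay near its start. Peaks of the listed markers in those lists are therefore partly set by this choice.

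The 6 listed hepatocyte genes had higher scores in the HEP list and were weak or not called in the EC list. Markers without an HSC or HEP peak could not enter this comparison. At fga, which encodes the fibrinogen alpha chain of blood clotting, HEP control had peaks with scores 1644 and 898, both shared, and EC control had 3 peaks with scores of 86, 81 and 148. The strongest HEP peak at fga stood at rank 2318 of 41563, and the EC peak overlapping it at rank 49349 of 51257. FGG, the fibrinogen gamma chain, had 1199 in HEP control and 108 in EC control, and ambp, whose product gives the plasma protein alpha-1-microglobulin, had 848 and 106. FGB, the fibrinogen beta chain, had 2 HEP-specific peaks with scores 594 and 937, and 1 EC-specific peak with score 193 at another position.

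At 2 hepatocyte genes EC control had no peak. The start of cyp3a65, a cytochrome P450 of drug metabolism, had 3 HEP-specific peaks with scores 235, 800 and 637. The start of c3a.1, a complement component C3 secreted by the liver, had HEP-specific peaks with scores 881 and 254. All 6 of these hepatocyte genes had peaks in EC TAA, with best scores of 1747 at fga, 1108 at FGB, 2111 at FGG, 1676 at ambp, 1214 at cyp3a65 and 1484 at c3a.1. They also had peaks in HSC control, with best scores from 699 at FGB to 1931 at FGG. These gene starts were therefore open in the HSC and EC TAA lists as well as in HEPs. This was not particular to them. Of all HEP-specific peaks 89.1% were in EC TAA and 84.5% in HSC control. For shared HEP peaks the shares were 85.9% and 96.7%. The housekeeping genes actb1 and ppiab also had peaks in both lists. FGG, ambp, cyp3a65 and c3a.1 stood nearer the top of HSC control and EC TAA than of HEP control, and fga and FGB did the opposite. The best cyp3a65 peak had rank 3786 of 55293 in HSC control and 8572 of 41563 in HEP control. For fga these ranks were 5674 and 2318. The part of hepatocyte DNA among the sorted cells in the sites those lists share with HEPs was not tested.

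Of 15 housekeeping genes 2 had a listed start, and both had shared peaks. At ppiab, a cyclophilin, EC control had scores 1934 and 757 and HEP control 1494 and 378, at overlapping positions. At actb1, a cytoplasmic beta-actin, both lists had the peaks at the start (832 and 1094 in ECs, 715 and 1518 in HEPs), and ECs had 3 further specific peaks with scores 338, 399 and 609. The Notch ligand gene jag1a had a shared peak of 378 in ECs and 254 in HEPs, and an EC-specific peak of 94. ANXA4, an annexin of bile duct cells, had 2 shared peaks and 1 EC-specific peak of 483.

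The strongest specific peaks within 3 kb of a listed start were named after their values were seen, 8 for each class. On the EC side they lay near SEMA3F, a secreted semaphorin (score 1752, chromosome 11 at 35575706 to 35575979), KLF7, a Krüppel-like transcription factor (1667, chromosome 1 at 6494349 to 6494735), PCDH17, a protocadherin (1562), palm2akap2 (1476), creld1a (1473), tmem88a (1406), RLN3, a relaxin (1379), and si:ch211-1a19.3 (1766). In other lists these peaks were not called or ranked lower. They were picked for a high score in EC control and no peak in HEP control. Absence from HEP control was thus set by the choice, and lower ranks elsewhere follow from it in part. The si:ch211-1a19.3 peak stood at 50.5% of the HSC control list and the SEMA3F peak at 48.9% of the HEP TAA list, both near the middle, and the remaining entries stood at 62.7% or beyond. KLF7 had 195 in HSC control and 179 in HEP TAA, SEMA3F had 138 and 338, and RLN3 was a peak in EC control alone. Of the 8, only tmem88a was a peak in EC TAA, with score 195. Among all EC-specific peaks of the best 10%, 6.18% were in EC TAA.

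On the HEP side the strongest was uox, the urate oxidase that breaks down uric acid, with score 2207 (chromosome 11 at 8167791 to 8168117) and 2509 in EC TAA. It was followed by dre-mir-2184, a microRNA gene (1702), TMEM135 (1544), itih3b.2, an inter-alpha-trypsin inhibitor heavy chain (1450), ugt5b5, a UDP-glucuronosyltransferase (1335), zgc:136472 (1255), si:dkey-159f4.2 (1242) and ptgdsa, a prostaglandin D synthase (1175). Each of the 8 was a peak in all lists except EC control, and their scores in EC TAA ran from 1291 at zgc:136472 to 2509 at uox.

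**Figure D3:**
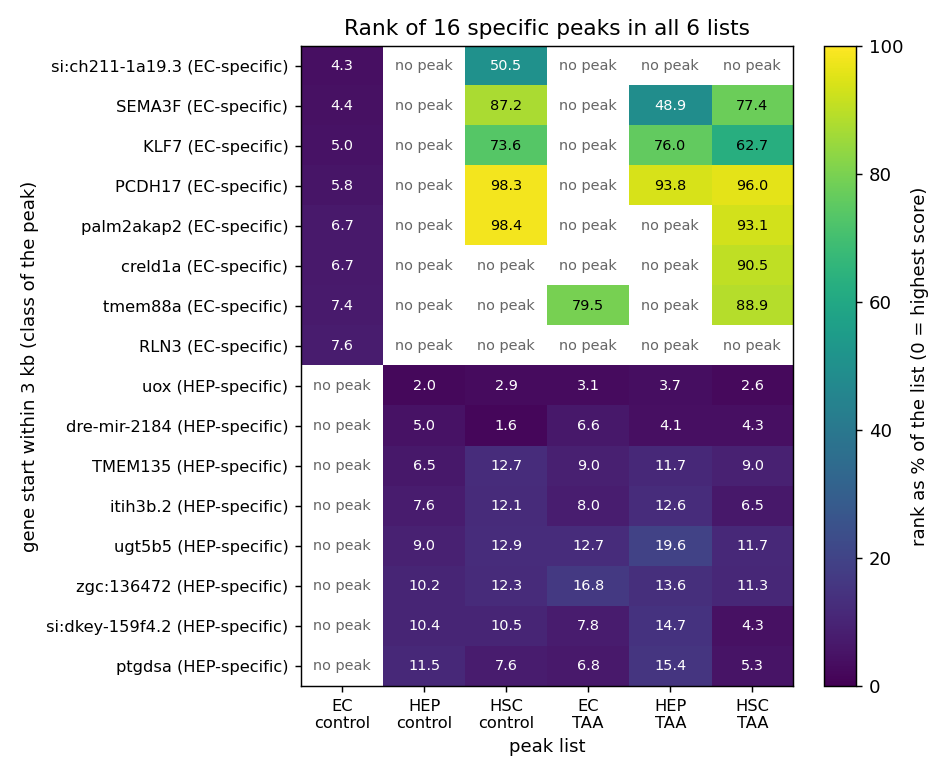
Rank of 16 specific peaks near named gene starts in the 6 lists (columns), as percent of the list from the highest score (0) to the lowest (100). The peaks were picked for a high score in their own control list and no peak in the other control list. The 8 EC-specific peaks (upper rows) are within the best 8% of EC control and at 48.9% or beyond, or not called, elsewhere, and the 8 HEP-specific peaks (lower rows) are within the best 20% of every list except EC control, where none is called.

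Specific peaks were narrower than shared peaks over whole lists. The median width was 160 bp against 200 bp in ECs and 163 bp against 183 bp in HEPs. Peaks of 400 bp or more made up 2.69% of EC-specific and 3.63% of shared EC peaks, and 1.23% and 1.85% in HEPs. Among strong peaks of like rank the order was the opposite. In the best 10% EC-specific peaks had a median width of 341 bp against 272 bp for shared peaks, and in the second 10% 300.5 bp against 230 bp. HEP-specific peaks of the best 10% had 281 bp against 268 bp. In the last 10% specific peaks were the narrower, with ratios of the medians of 0.961 in ECs and 0.957 in HEPs. In HEPs the ratio was also below 1 in the steps of 10% just before it (0.985 and 0.967).

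**Figure D4:**
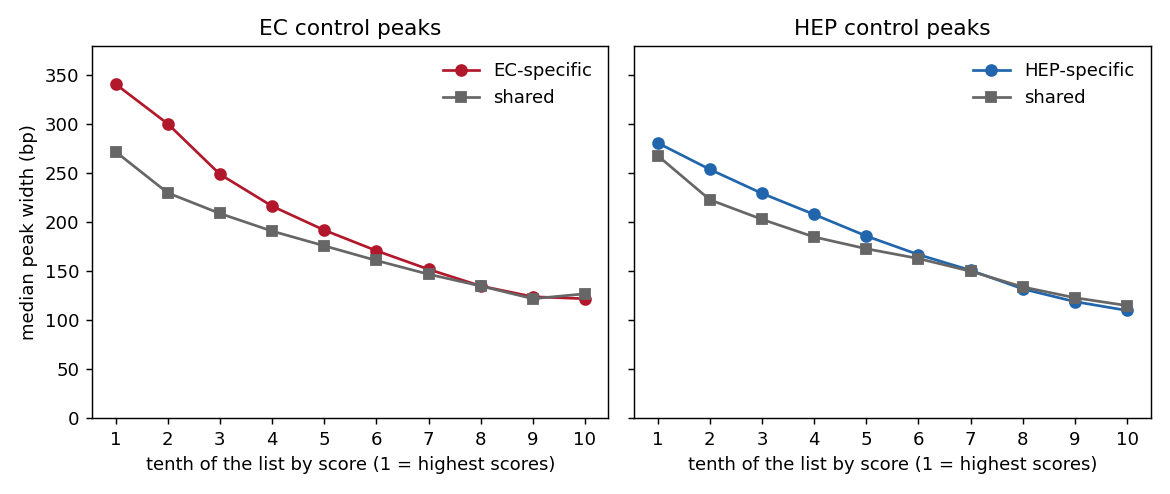
Median peak width in bp (y axis) of specific (coloured circles) and shared peaks (grey squares) in each successive 10% of the list by score (x axis), EC control on the left and HEP control on the right. EC-specific peaks of the best 10% have a median of 341 bp against 272 bp for shared peaks, and the lines meet toward the weak end.

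Where both cell types had a peak, the summits lay close together and the strength agreed less. Pairs were formed by overlap, which limits how far apart summits can lie and sets no limit on strength. This contrast is therefore partly built in. Over the 26268 overlapping pairs the median distance between summits was 10 bp, 87.4% of pairs had summits within 50 bp, and 90.3% overlapped by at least 50% of both peaks. The EC peak was the wider in 63.6% of pairs, with median widths of 201 bp and 183 bp. Spearman's rho across pairs was 0.520 for rank and 0.492 for width, as a description over peaks that share their libraries. Of the 4720 pairs with an EC peak in the best 10%, 58.4% had the HEP peak in its best 10% too, and 383 (8.11%) had it in the weaker 50%. Of the 3830 pairs with a HEP peak in the best 10%, 511 (13.3%) had the EC peak in the weaker 50%. Both peaks stood at the highest score in 34 pairs. The rank order of shared peaks therefore differed between the lists even where the site was open in both. Without a repeat list of either cell type, how far lists of the same cells would differ is not known.

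The specific share varied over about 9 percentage points between chromosomes in ECs and about 7 in HEPs. EC-specific peaks made up from 44.8% of EC peaks on chromosome 22 to 53.9% on chromosome 23, with a median of 48.7%, and the intervals of 7 of 25 chromosomes left out the value of the whole list. HEP-specific peaks made up from 33.5% on chromosome 10 to 40.5% on chromosome 9, with a median of 37.0%. For HEPs the intervals of 4 of 25 chromosomes left out the value of the whole list. The EC share was above the HEP share on 25 of 25 chromosomes, by 8.73 to 16.3 percentage points. At equal list length, chosen after the values were seen, it was above on 15 of 25, with differences from -3.74 to 4.83 points. Equal lengths bring both total shares close together by construction, so the order on 25 of 25 chromosomes cannot be told apart from list length. Within 2 Mb of a chromosome end, taken as the last peak of any list, 30.8% of HEP peaks were specific (29.4% to 32.3%) against 37.5% farther in (37.0% to 38%), and the EC shares were 48.4% and 49.1%. At equal length the shares were 35.4% and 42.1% in HEPs and 40.8% and 41.9% in ECs. On chromosome 4 between 30 and 70 Mb, a stretch chosen after its values were seen, few peaks were called. For ECs the specific share there was 150 of 238 (63.0%, 56.7% to 68.9%), against 48.6% (46.2% to 51.1%) on the rest of the chromosome. For HEPs it was 64 of 150 (42.7%, 35.0% to 50.7%), against 35.0% (32.4% to 37.6%). The HEP intervals overlapped and the EC intervals did not.

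**Figure D5:**
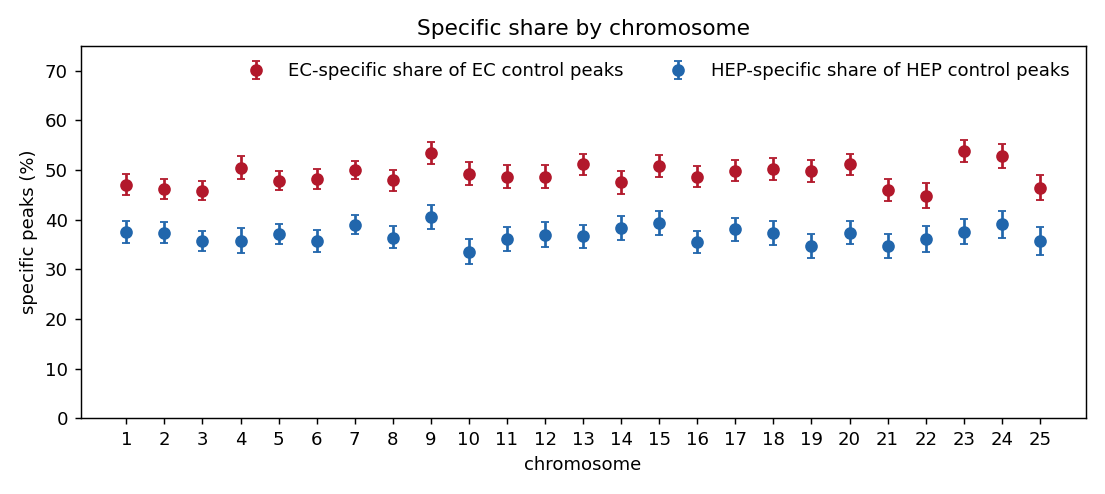
Percent of EC control peaks that are EC-specific and of HEP control peaks that are HEP-specific (y axis) on each of the 25 chromosomes (x axis), with Wilson 95% intervals. The EC shares lie between 44.8% and 53.9% and the HEP shares between 33.5% and 40.5% in the whole lists, which differ in length.

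Specific peaks lay beside other specific peaks more often than shared peaks did. The nearest neighbour in the list was specific for 56.6% of EC-specific peaks (56.0% to 57.2%) and 40.6% of shared EC peaks. In HEPs it was specific for 48.4% of HEP-specific peaks (47.6% to 49.2%) and 29.7% of shared peaks. At equal length the shares were 50.6% and 34.9% in ECs and 53.1% and 32.3% in HEPs. Another peak of the same class lay within 5 kb for 32.1% of EC-specific and 36.3% of shared EC peaks, and for 26.6% of HEP-specific and 36.8% of shared HEP peaks. For specific peaks this became 27.5% in ECs and 28.2% in HEPs at equal length. These 5 kb shares also depend on the number of peaks in each class. The median gap to any peak of the list was 5098 bp for EC-specific and 4600 bp for shared EC peaks. In HEPs it was 5694 bp and 5488 bp. Specific peaks were thus slightly less crowded than shared peaks, yet more often had a specific nearest neighbour. The median distance from an EC-specific peak to the nearest HEP peak was 8883 bp, and 2509 of these peaks (9.98%) had none within 50 kb. For HEP-specific peaks the median distance to an EC peak was 7015.5 bp, and 1221 (7.96%) had none within 50 kb.

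Runs of specific peaks with no shared peak between them were longer in ECs in the whole lists and longer in HEPs at equal length. EC-specific peaks formed 11106 runs with a mean of 2.26 peaks, and 166 runs held 10 peaks or more, together 2048 peaks (8.14%). HEP-specific peaks formed 8139 runs with a mean of 1.88, and 47 runs held 10 or more, together 551 peaks (3.59%). With 41563 peaks per list, chosen after the values were seen, the mean was 1.99 in ECs and 2.07 in HEPs, and runs of 10 or more held 3.88% of EC-specific and 5.71% of HEP-specific peaks. In the whole lists the longest EC run lay on chromosome 10 from 4316202 to 4899174 and held 25 peaks, of which 1 was in EC TAA, 2 in HSC control, 2 in HSC TAA and 1 in HEP TAA. It includes the palm2akap2 peak named above. The longest HEP run lay on chromosome 22 from 24729704 to 24900590 and held 19 peaks, of which 18 were in EC TAA, 18 in HSC TAA, 16 in HSC control and 13 in HEP TAA. Over the whole EC-specific class 16% were in EC TAA, 26.8% in HSC control, 21.0% in HSC TAA and 15% in HEP TAA. Over the HEP-specific class 89.1% were in EC TAA, 90.8% in HSC TAA, 84.5% in HSC control and 76.1% in HEP TAA.

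In windows of 100 kb, 102 windows held 10 or more EC-specific peaks and 20 held 10 or more HEP-specific peaks. At equal length the numbers were 34 and 27. On chromosome 20 between 22200001 and 22300000 all 15 EC peaks were EC-specific, with a best rank of 3304, a best score of 1498 and a median score of 351, where HEP control had 1 peak, HEP TAA 0 and EC TAA 4. On chromosome 18 between 48700001 and 48800000, 16 of 23 EC peaks were specific, and on chromosome 13 between 46100001 and 46200000, 15 of 19. The densest HEP window, on chromosome 16 between 23900001 and 24000000, had 15 specific of 16 HEP peaks, where EC control had 3 peaks and EC TAA 24. On chromosome 6 between 32300001 and 32400000, 14 of 18 HEP peaks were specific, with 5 peaks in EC control and 17 in EC TAA. Of the specific peaks in the EC windows, 1 on chromosome 20, 0 on chromosome 18 and 1 on chromosome 13 were in EC TAA. All 15 and all 14 specific peaks of these HEP windows were. Over the whole classes 16% of EC-specific and 89.1% of HEP-specific peaks were in EC TAA.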

How the data were processed

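ATAC-seq peak lists of control ECs and HEPs were analysed, with the lists of the other 4 groups for comparison. Per the labels and the study's methods, the authors trimmed reads with cutadapt 1.18, aligned them to GRCz11 with Bowtie2 2.3.4.3, kept short fragments, and called peaks with MACS2 2.1.0.2 subcommands on tracks of 3 libraries combined by Fisher's method. The deposited score is the negative log10 of a q-value multiplied by 10, capped at 3240. It was used for ranks within a list, and scores of different lists are printed side by side as a description only. The median score ran from 299 in EC control to 439 in EC TAA and HSC TAA, so a given score stands at different ranks in different lists. Ties in score were ordered by position. The deposited summit offset, another value of the files, gives the position of a summit. Fold, p-value and q-value columns held 0 and were not used. The deposited lists hold no counts, so the depth behind each peak is unknown. Read totals per library stand in the study's sequencing metrics, and no value was taken from them.

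Overlaps, widths, distances, runs and windows were computed in Python 3.11.15 with pandas 2.3.3 and numpy 2.4.6, and Wilson intervals with scipy 1.17.1. The overlap code was tested on simulated lists and against bedtools 2.31.1. Samples were grouped by their labels, and lists were matched to groups through the series' design text. The sites named were the 10 strongest specific peaks of each list, the densest windows, and the listed genes of fixed marker lists. The members, lists and measures were chosen with earlier results of these data known. The alternatives were equal list lengths, the better 50% of each list, a 50% overlap of both peaks and a distance of 500 bp. Gene starts came from part of the study's own promoter annotation and gene symbols from a table of gene names. No GRCz11 genome or gene annotation was used here, so no sequence, motif or share of gene starts is given.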

Additional observations from a re-analysis of the deposited data

How the results depend on the processing

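Each group had 1 list and no result came from a test, so no library could be left out. No paired analysis was possible because the result comes from no test and the lists carry no replicate numbers. The EC-specific share of 49.1% became 41.8% at 41563 peaks per list, 45.7% at 20000, 52.0% for the better 50% of each list, 28.5% for the better 50% against the whole other list, 53.7% with 50% of both peaks overlapping, and 45.7% with peaks within 500 bp counted as shared. The HEP-specific share of 36.9% became 41.5%, 45.6%, 40.6%, 27.7%, 42.9% and 33.8% under the same settings. In the best 10%, the EC share of 8.84% became 12.2% and the HEP share of 8.08% became 14.5% with 50% overlap, and the HEP share became 13.6% against 41563 EC peaks. The share with a peak of the same class within 5 kb became 9.21% in ECs and 8.71% in HEPs at 1 kb, and 27.5% and 28.2% at equal length, so that its order turned around. The ratio of median widths, 0.800 in ECs and 0.891 in HEPs, became 1.08 and 1.04 as the median over the steps of 10% by score, a reversal. The reversal did not hold at every step. In HEPs the ratio was 0.985 in step 8, 0.967 in step 9 and 0.957 in step 10, the last 10%. In ECs it was 1.00 in step 8, 1.02 in step 9 and 0.961 in step 10. Over whole classes the ratio became 0.883 in ECs at equal length, and 0.828 and 0.883 with 50% overlap. With 41563 peaks in every list, EC-specific peaks were in HSC control, EC TAA, HEP TAA and HSC TAA in 14.9%, 10.5%, 14.3% and 10.8% of cases and HEP-specific peaks in 72.6%, 78.8%, 73.5% and 78.4%. The share of specific peaks in runs of 10 or more, 8.14% in ECs and 3.59% in HEPs, became 3.88% and 5.71% at that length, the windows with 10 or more EC-specific peaks fell from 102 to 34, and the EC share was above the HEP share on 15 chromosomes instead of 25. These and the presence values at equal length were chosen after seeing the data. The causes were not tested. Of 45 alternatives, 9 stayed within the counting interval, or for counts within 1.5 times, of the value reported. Most of these 9 could not move and say nothing about stability. They kept the 25 numbered chromosomes, which already held every peak, or cut the HEP list to 41563 peaks, its own length. The alternatives on gene starts and motifs were not run, since no GRCz11 annotation or genome was used.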
